A study of Arabidopsis thaliana with 9 samples.

Results

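The LCR genes of Arabidopsis thaliana encode low-molecular-weight, cysteine-rich peptides that are made with a secretion signal. Probe sets were chosen by name: every probe set annotated to a single gene with a symbol of LCR followed by digits, with the brightest kept per gene. This gave 8 genes, each with 1 probe set, out of 13356 genes named alone by a probe set on the array. The reference gene table holds 81 genes with an LCR symbol, and the other 73 are not analysed here. With LCR second names also counted, 12 genes with a probe set carry an LCR name. Those with a PDF symbol in place of an LCR symbol were kept as comparison genes. The 8 genes are LCR24, LCR59, LCR66, LCR67, LCR68, LCR69, LCR72 and LCR80.

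LCR peptides were first grouped by their likeness to the pollen coat proteins of Brassica, and cysteine-rich peptides as a class act in plants as antimicrobial defensins and as signals between pollen and pistil. Plant defensins fold into a small compact core held by disulfide bridges between their cysteines. The name does not mark one function. In the reference table LCR66, LCR67, LCR68, LCR69 and LCR72 carry the plant defensin names PDF2.4, PDF1.1, PDF2.3, PDF2.2 and PDF2.6 as second names, whereas LCR24, LCR59 and LCR80 carry none.

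The arrays measured mRNA on polysomes that were pulled down through a FLAG-tagged ribosomal protein L18. All 9 samples came from the same LAT52-HF-RPL18 transgenic plants, without an untagged control, and the tagged protein is made under ProLAT52, a pollen-specific promoter. There were 3 groups of 3 biological replicates: floral buds of stage 11 to 12 (bud), self-pollinated flowers of stage 14 (in vivo), and pollen tubes grown in culture (in vitro). All 9 samples are recorded with 18 h light and 6 h dark, 22 °C and a sucrose range of 20 to 60%. For bud, the design text speaks of unpollinated styles and the sample labels of floral buds; the labels were followed.

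The labels give the tissue as pollen grains and tubes or pollen tube, but markers of other floral tissues were also bright. By sum, photosynthesis and pistil and ovule markers were brighter in bud and in vivo than in vitro. Tapetum and anther markers were bright in bud, and their in vivo and in vitro sums overlapped. The 8 measured photosynthesis genes (of 49 listed) had a summed signal of 69109 to 101684 on bud arrays, 59849.9 to 92433 on in vivo arrays and 456 to 889.5 on in vitro arrays. The 6 measured tapetum and anther genes (of 30 listed) ran in sum from 14776 to 23474 in bud, from 529 to 1065 in vivo and from 134 to 905 in vitro. The 14 measured pollen tube genes (of 44 listed) went the other way, at 1992 to 3469 on bud arrays, 8289.6 to 23443 on in vivo arrays and 458435 to 624027 on in vitro arrays. Pistil and ovule markers, 6 of 39 listed, summed to 2038 to 2955, 2551 to 3178 and 326 to 378. No marker was at 0 on any array, but without detection calls a signal above 0 does not show that a tissue was present. A signal says how bright a probe set is for its array, and the array medians were 174 to 196 in bud and in vivo but 68.7 to 112 in vitro. In these bulk pull-downs fewer cells of a type, less RNA per cell and less RNA on tagged polysomes cannot be told apart. Without an untagged control, RNA carried over without the tag cannot be separated either.

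The 8 genes fell into different patterns over the 3 groups. LCR66 was bright in bud alone. LCR68 and LCR69 were bright in bud and in vivo and dim in vitro. LCR72 was bright throughout and brightest in vitro. LCR80 and, more weakly, LCR59 had their highest signals in vivo. LCR24, LCR59 and LCR67 were dim, with a signal above the array median on 1, 1 and 0 of the 9 arrays.

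**Figure D1:**
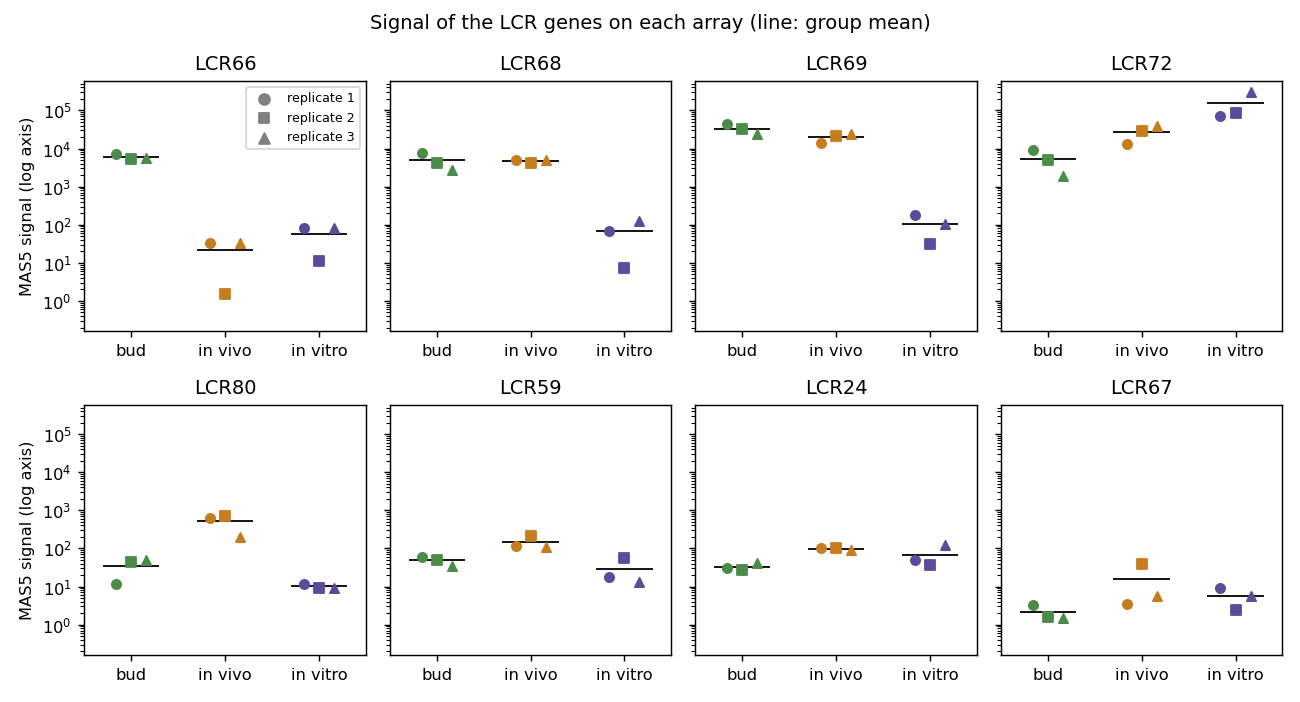
MAS5 signal (log axis) of each LCR gene on the 9 arrays, by group; the symbol gives the replicate number and the line the group mean. LCR66 is high on the 3 bud arrays only, LCR68 and LCR69 are low on the 3 in vitro arrays only, LCR72 is above 1938 on every array, and the other 4 genes stay below 700 on every array.

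Each comparison was tested with limma over 22746 probe sets, and a gene was called at a Benjamini-Hochberg adjusted p under 0.05. In vitro against bud, 1 of 8 LCR genes was called higher (LCR72) and 3 were called lower (LCR66, LCR68, LCR69), where 20.4% of all probe sets were called higher and 40.5% lower. In vivo against in vitro, 4 were called higher (LCR59, LCR68, LCR69, LCR80) and 1 lower (LCR72), against 39.4% and 20.0% of all probe sets. The LCR counts in these 2 comparisons were thus near the share of all probe sets. In vivo against bud, LCR80 was called higher and LCR66 lower, where 2.15% and 1.87% of all probe sets were called. Arrays of these 2 groups did not overlap for LCR24, LCR59, LCR67, LCR72 and LCR80, higher in vivo, and for LCR66 and LCR69, lower in vivo, against 11.2% and 10.9% of all probe sets.

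The median log2 fold of the 8 genes was 0.94 in vivo against bud, -0.74 in vitro against bud and 1.23 in vivo against in vitro. Over all 22746 probe sets it was -0.02, -0.42 and 0.36. With quantile normalization the medians over all probe sets in the 2 comparisons with in vitro were 0.22 and -0.26. With equal array medians they were 0.63 and -0.67, and every LCR fold in these 2 comparisons moved the same way. In vitro against bud, LCR80 and LCR59 were then 0.19 and 0.44, against -0.87 and -0.62 as deposited. In vivo against in vitro, LCR24 and LCR59 were -0.46 and 0.87, against 0.56 and 1.90. The LCR medians above hold only for the signals as deposited. The 3 comparisons share arrays and are not independent of each other.

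**Figure D2:**
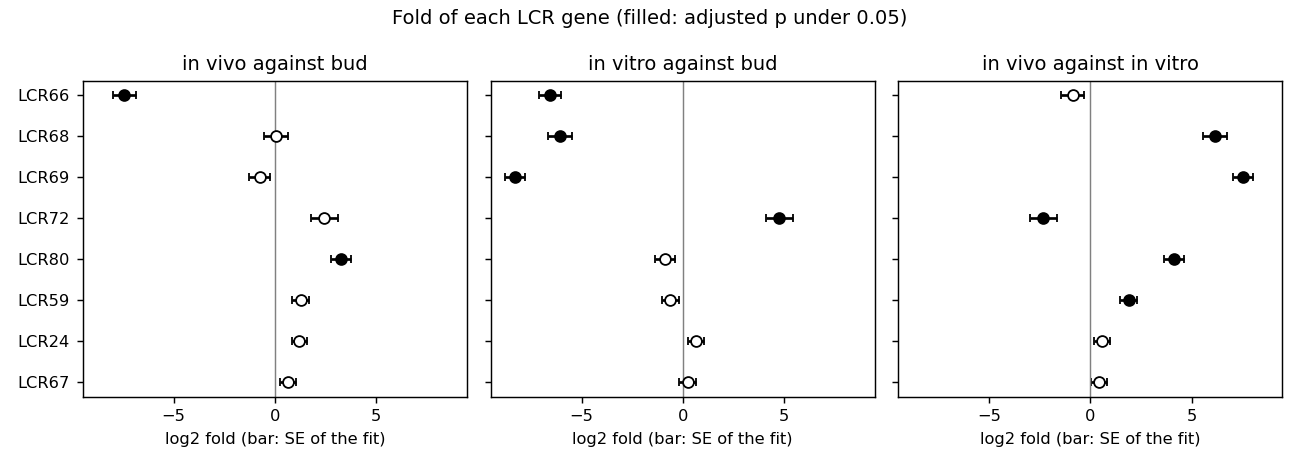
Log2 fold of each LCR gene in the 3 comparisons, with the standard error of the fit as a bar; filled points have an adjusted p under 0.05. In vivo against bud only LCR66 (-7.45) and LCR80 (3.27) are filled, in vitro against bud LCR66, LCR68 and LCR69 lie below 0 and LCR72 above, and in vivo against in vitro LCR72 is the filled point below 0.

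LCR66 (AT1G61070, chromosome 1), the defensin PDF2.4, had bud signals of 7260.2, 5204 and 5767 in replicates 1 to 3. Its signals were 32.5, 1.55 and 32.8 in vivo and 84.1, 11.2 and 80.5 in vitro. All 3 bud arrays lay far above the other 6, on each of which it was dimmer than 100. The log2 fold was -7.45 ± 0.55 in vivo against bud (standard error of the fit, SE; limma, Benjamini-Hochberg adjusted p = 2.34e-05) and -6.56 ± 0.55 in vitro against bud (SE, adjusted p = 1.4e-06). These folds are on the log2(signal + 16) scale, which understates changes toward dim signals: with an offset of 1 or 64 in place of 16 the first was -8.72 or -6.16. Without in vitro replicate 2 the second was -5.94. Between in vivo and in vitro the arrays overlapped, and the log2 fold of -0.89 ± 0.55 (SE, adjusted p = 0.191) was not called. It was called with quantile normalization (-1.58, adjusted p = 0.0446), with equal array medians (-1.91, adjusted p = 0.0064) and without in vitro replicate 2 (-1.51, adjusted p = 0.02).

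Over the 9 arrays, the genes whose log2 signals were most like LCR66 were SHT (r = 0.987), a spermidine acyltransferase of the tapetum, AT5G47635 (r = 0.986) and AT4G37900 (r = 0.983). SHT averaged 3202 in bud, and 14.6 in vivo and 54.6 in vitro. The tapetum is the anther layer that feeds developing pollen and is gone from mature anthers. Of the 6 measured tapetum and anther genes, 5 were called lower in vivo than in bud and all 6 lower in vitro. The correlations are descriptions over arrays that share their group differences, and the part of anther tissue in the LCR66 signal was not tested.

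LCR69 (AT2G02100, chromosome 2), the defensin PDF2.2, had signals of 44105, 32190 and 24124.5 in bud and 13896, 21772 and 23557 in vivo. On the in vitro arrays it had 185, 30.4 and 102. Cultured tubes therefore stood far below both flower groups. The in vivo arrays were all under the lowest bud array, the highest of them only slightly. The log2 fold in vitro against bud was -8.30 ± 0.51 (SE, adjusted p = 1.73e-07). On 2 of the 3 in vitro arrays LCR69 was below the array median, and without detection calls the size of this fall, like that of other folds against dim signals, depends on background. In vivo against in vitro it was 7.55 ± 0.51 (SE, adjusted p = 4.58e-07), and in vivo against bud it was -0.75 ± 0.51 (SE, adjusted p = 0.75), which was not called. Over the 16 alternatives the fall in vitro was -8.78 to -7.24.

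LCR68 (AT2G02130, chromosome 2), the defensin PDF2.3, is known to act on fungi and on potassium channels when given as a purified peptide. It had 7690.4, 4182 and 2767 in bud, 4857, 4247 and 4956 in vivo, and 69.3, 7.43 and 128 in vitro. The bud and in vivo arrays overlapped, and every in vitro array was below both. In cultured tubes LCR68 fell by 6.08 ± 0.60 on the log2 scale relative to bud (SE, adjusted p = 4.64e-06), and it was higher in vivo than in vitro by 6.15 ± 0.60 (SE, adjusted p = 5.04e-06). Without in vitro replicate 2, which had the lowest signal, these values were -5.34 and 5.4, and over the 16 alternatives the first was -6.72 to -5.02. The in vivo fold against bud was 0.07 ± 0.60 (SE, adjusted p = 0.995).

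LCR68 and LCR69 varied together over the 9 arrays (r = 0.983), the highest correlation among the 28 pairs of LCR genes. The genes most like LCR69 were AT2G34480 (r = 0.997), AT5G56940 (r = 0.997) and FRO1, a mitochondrial respiratory subunit gene (r = 0.996). Those most like LCR68 were AT4G10300, AT1G01170 and AT2G37510, with r of 0.995, 0.995 and 0.995. Many genes shared this shape: 1529 probe sets of a single gene had r above 0.95 with LCR69 and 1250 with LCR68. The photosynthesis markers moved the same way, with 8 of 8 called lower in vitro than in bud and none called in vivo against bud, and their part in these signals was not tested.

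LCR72 (AT2G02140, chromosome 2), the defensin PDF2.6, was the 1 of the 8 LCR genes called higher in vitro than in bud. Its signals were 9151, 5053 and 1938 in bud, 12806, 29187 and 38843 in vivo, and 73585, 86449.8 and 297369 in vitro. The 3 groups did not overlap on any array, with bud lowest and in vitro highest. Its share of the summed signal of an array was 0.0110 to 0.0492% for bud, 0.0840 to 0.219% for in vivo and 0.261 to 0.632% for in vitro. In cultured tubes LCR72 rose over bud by 4.78 ± 0.68 (log2, SE, adjusted p = 7.75e-05), a ratio of mean signals of 28.3. In vitro replicate 3 was 4.04 times as bright as in vitro replicate 1, and that array also had a median hybridisation control signal of 67541 against 5175 and 5246 on the other two. Without in vitro replicate 3 the fold was 4.15 (adjusted p = 0.000148), and without bud replicate 3 it was 4.18 (adjusted p = 0.00046).

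The 2 smaller steps of LCR72 were less firm. From bud to in vivo the log2 change was 2.44 ± 0.68 (SE, adjusted p = 0.081), which was not called, although all in vivo arrays were above all bud arrays. In vivo it was lower than in vitro by the test, at -2.34 ± 0.68 (log2, SE, adjusted p = 0.0105). That difference was -3.37 (adjusted p = 0.000516) with equal array medians, 0.046 (adjusted p = 0.95) with quantile normalization, -1.88 (adjusted p = 0.0527) without in vivo replicate 1 and -1.71 (adjusted p = 0.034) without in vitro replicate 3. The order of in vivo and in vitro therefore depended on how the arrays were scaled. In vivo replicate 1, with the lowest in vivo LCR72 and LCR69, had a median hybridisation control signal of 1436. The other in vivo arrays had 8961 and 9334. Its highest probe set signal was 26903, against 93174 and 93094. The part of this in the LCR signals was not tested. LCR72 was higher in vitro than in bud under each of the 16 alternatives, at 2.97 to 5.84.

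Genes with a profile like LCR72 over the 9 arrays were AT3G26110 (r = 0.999), AT4G02250 (r = 0.995) and AT1G54070 (r = 0.990). The means of AT3G26110 were 4267 in bud, 29969.6 in vivo and 247130.3 in vitro. All 14 measured pollen tube markers were called higher in vitro than in bud, 6 were called higher in vivo than in bud, and all 14 were called lower in vivo than in vitro. RALFL25 and RALFL26, secreted peptide genes of the RALF family, also had means that were lowest in bud and highest in vitro, at 2185, 12734.5 and 74240.6 for RALFL25 and 641, 5119.8 and 169095 for RALFL26.

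**Figure D3:**
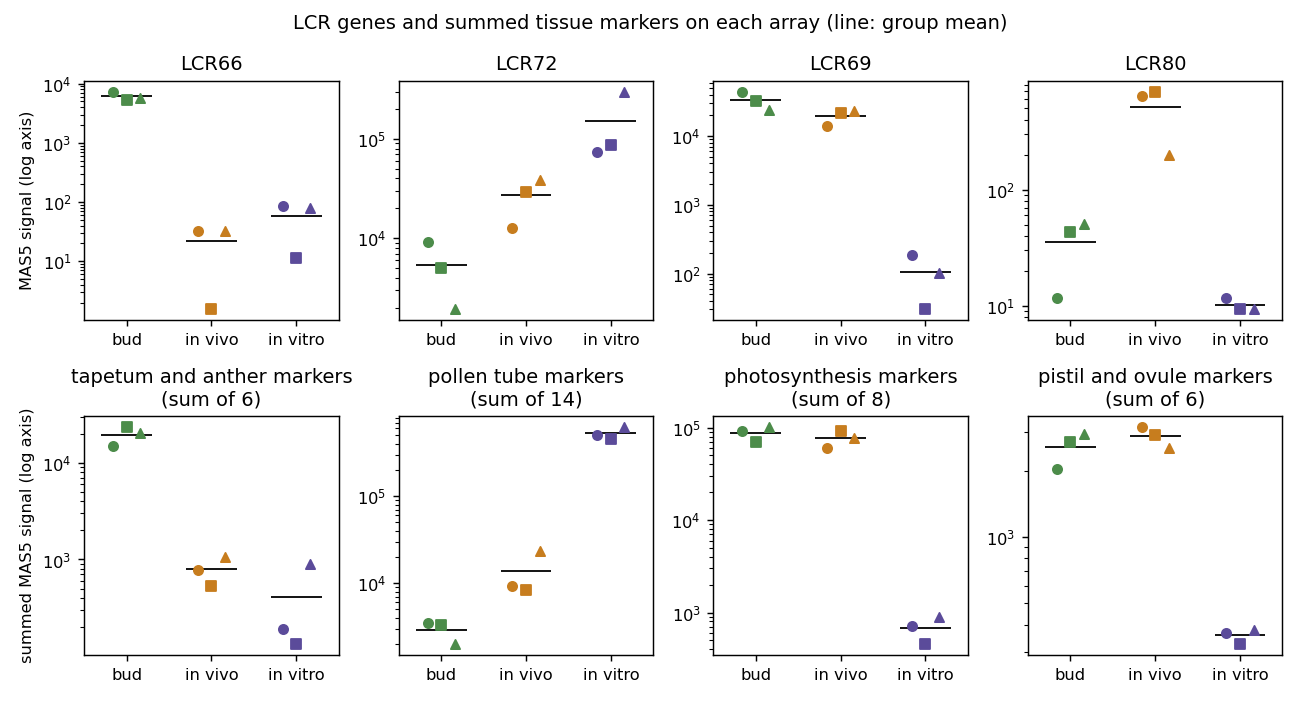
Upper row: MAS5 signal (log axis) of LCR66, LCR72, LCR69 and LCR80 on each array; lower row: summed signal (log axis) of the markers of 1 tissue, with symbols for replicates 1 to 3 and a line at the group mean. LCR66 and the 6 tapetum and anther markers are highest in bud, LCR72 and the 14 pollen tube markers are highest in vitro, and LCR69 and the 8 photosynthesis markers are lowest in vitro. LCR80 was brightest in vivo while the summed pistil and ovule markers overlapped between bud and in vivo. FER, with means of 1811 in bud and 1844 in vivo, was the brightest gene in that sum, and the single markers differed in direction.

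LCR80 (AT5G38330, chromosome 5) was the LCR gene called higher in vivo than in bud. It had 11.7, 43.5 and 50.5 in bud, 643, 694 and 197 in vivo, and 11.8, 9.43 and 9.39 in vitro. Its lowest in vivo array, replicate 3, was still above every array of the other groups. LCR80 rose from bud to in vivo by 3.27 ± 0.50 (log2, SE, adjusted p = 0.00299), and was higher in vivo than in vitro by 4.15 ± 0.50 (SE, adjusted p = 2.34e-05). Both calls held under the 16 alternatives, at 2.41 to 3.86 and 2.81 to 5.32. One alternative kept only probe sets above the array median on at least 3 arrays. LCR80 passed that filter only through its in vivo arrays, so that alternative adds no support for the rise. Its bud and in vitro arrays overlapped, and the in vitro fold against bud was -0.87 ± 0.50 (SE, adjusted p = 0.151). AT1G09370 (r = 0.972), AT3G17080 (r = 0.966) and AT1G31530 (r = 0.960) were the genes most like LCR80 over the 9 arrays.

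LCR59 (AT4G30070, chromosome 4) was dimmer. It had 61.1, 49.2 and 35.2 in bud, 115, 216 and 107 in vivo, and 18.3, 56.3 and 12.9 in vitro. The in vivo arrays were above all others, but only 1 of the 9 arrays had a signal above the array median. Against in vitro the in vivo group was higher by 1.90 ± 0.42 (log2, SE, adjusted p = 0.00217). This call was lost with quantile normalization (1.15, adjusted p = 0.0765) and with equal array medians (0.87, adjusted p = 0.131). The in vivo fold against bud was 1.28 ± 0.42 (SE, adjusted p = 0.165). In vitro against bud it was -0.62 ± 0.42 (SE, adjusted p = 0.228), and without in vitro replicate 2 it was -1.01 (adjusted p = 0.0474), which was called.

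Among the 3 genes most like LCR59 over the 9 arrays was EC1.2 (r = 0.958), which encodes a cysteine-rich peptide secreted by the egg cell and acting on sperm at fertilisation. Its means were 36.2 in bud, 208 in vivo and 16.6 in vitro. AT1G03020 (r = 0.986) and AT4G18540 (r = 0.952) were the others. EC1.2 and EC1.5 were the 2 of 6 measured pistil and ovule markers called higher in vivo than in bud. The ovule gene INO and the receptor gene FER had means of 298.5 and 1811 in bud and 331.5 and 1844 in vivo. Without a call, BAN was higher on all in vivo arrays than in bud (means 143.5 and 28.1). SPT was lower on all of them (means 195 and 375), also without a call. The part of ovule tissue in the signals of LCR59 and LCR80 was not tested.

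LCR24 (AT4G29285, chromosome 4) had 31.1, 26.6 and 41.8 in bud, 102, 101 and 89.5 in vivo, and 48.8, 35.7 and 119.7 in vitro. The in vivo arrays were above the bud arrays, and the in vitro arrays spanned both. Its log2 fold in vivo against bud was 1.22 ± 0.39 (SE, adjusted p = 0.143). Its call depended on the fit: it passed with only the 6 arrays compared (adjusted p = 0.0232) and without in vitro replicate 3 (adjusted p = 0.0239). In vitro against bud the fold was 0.66 ± 0.39 (SE, adjusted p = 0.161), and it was called with quantile normalization (1.34, adjusted p = 0.00836) and with equal array medians (1.72, adjusted p = 0.00088). In vivo against in vitro it was 0.56 ± 0.39 (SE) and not called, and without in vitro replicate 3 it was called at 0.97 (adjusted p = 0.0165).

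LCR67 (AT1G75830, chromosome 1), the defensin PDF1.1, is best known from seeds. Its signal was 1.5 to 39.5 over the 9 arrays and below the array median on each. No comparison called it with the signals as deposited, with log2 folds of 0.66 ± 0.41, 0.25 ± 0.41 and 0.41 ± 0.41 (SE) for in vivo against bud, in vitro against bud and in vivo against in vitro. With equal array medians the in vitro fold against bud was 1.31 (adjusted p = 0.0198), which was called. Without detection calls, signals this low cannot be told from background.

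Within groups, the brighter LCR genes differed between replicates. In bud, replicate 1 had the highest signal of LCR66, LCR68, LCR69 and LCR72, and replicate 3 the lowest of LCR68, LCR69 and LCR72. The highest over the lowest bud array was 4.72 for LCR72, 2.78 for LCR68, 1.83 for LCR69 and 1.4 for LCR66. A high 3'/5' signal ratio of the GAPDH control probe sets is a sign of RNA degradation or incomplete amplification. For 1 pair of these probe sets it was 3.82, 2.01 and 1.28 in bud replicates 1, 2 and 3. On the other arrays this pair had 1.21 to 2.09. An older GAPDH pair gave higher ratios, at 15.998, 8.13 and 2.92 in bud replicates 1, 2 and 3. On the other arrays the older pair had 4.23 to 8.56. The part of RNA quality in these differences was not tested.

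LCR69, LCR68 and LCR72 lie in one short stretch of chromosome 2 in the reference table, so neighbouring genes of the same family can be set side by side. The order is LCR69, PDF2.1 (second name LCR70), LCR68, the pseudogene LCR71, LCR72 and LCR73, with 3 other loci among them. LCR71 and LCR73 have no probe set named here. PDF2.1 was dim in every group, with 51.6, 58.1 and 48.1 in bud, 49.0, 35.2 and 38.7 in vivo, and 73.3, 26.4 and 124.8 in vitro.

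**Figure D4:**
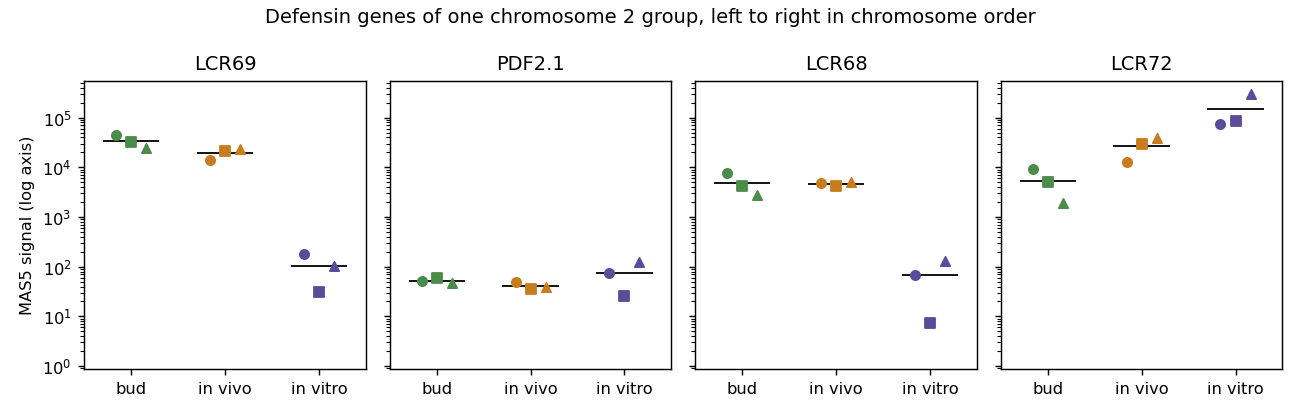
MAS5 signal (log axis) of 4 defensin genes of chromosome 2 on each array, in chromosome order; symbols give replicates 1 to 3 and the line the group mean. LCR69 and LCR68 drop in vitro, LCR72 rises, and PDF2.1 stays below 125 on all 9 arrays.

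In vitro against bud, LCR69 and LCR68 were called lower, LCR72 was called higher, and PDF2.1 was called in no comparison. Differences between these neighbours were not tested.

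**Figure D5:**
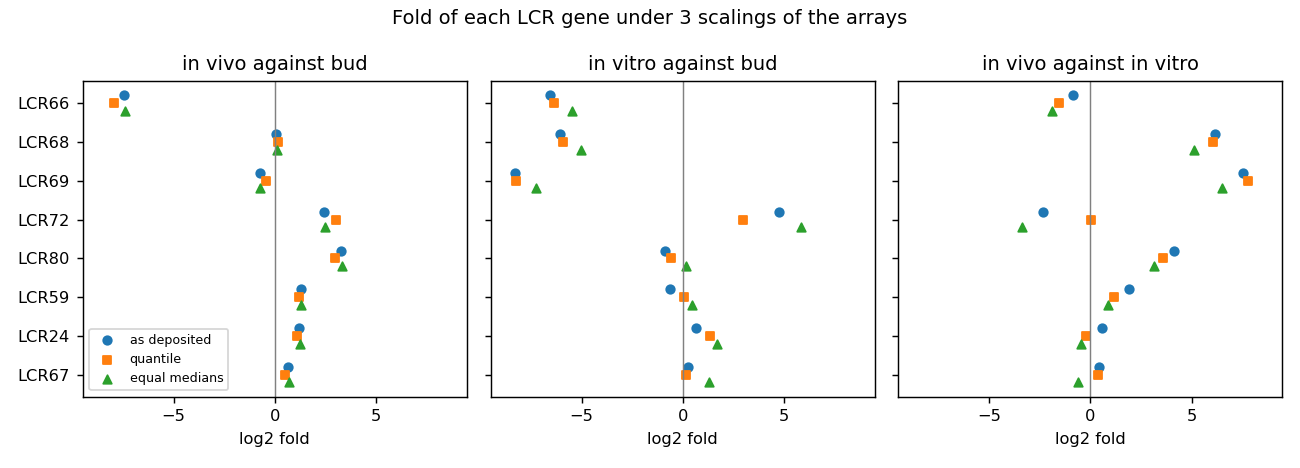
Log2 fold of each LCR gene with signals as deposited (circles), after quantile normalization (squares) and with equal array medians (triangles). The falls of LCR66, LCR68 and LCR69 keep their direction, whereas LCR72 in vivo against in vitro moves from -2.34 to 0.046 and -3.37.

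Other genes for cysteine-rich secreted peptides were set beside the LCR genes from families matched by symbol: 5 defensins with a PDF symbol, 2 thionins, 11 RALF-like genes, 2 egg cell EC1 genes and STOMAGEN. PDF1.2, PDF1.4, PDF2.1 and PDF2.5 carry LCR77, LCR78, LCR70 and LCR74 as second names, so they are LCR genes by second name. No snakin, SCR-like, LURE, lipid transfer or STIG1 gene was matched. Of these 21 genes, 5 were called higher and none lower in vivo against bud, where 2.15% and 1.87% of all probe sets were called. In vitro against bud, 4 were higher and 9 lower, near the 20.4% and 40.5% of all probe sets. In vivo against in vitro, 12 were higher and 2 lower, against 39.4% and 20.0%. Their median log2 folds were 0.29, -0.73 and 2.28.

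The 5 PDF genes were dim. Their means were 9.01 to 109 in every group, and PDF1.2, PDF1.4 and PDF2.1 were called in no comparison. PDF2.5 and PDF1.2b were called higher in vitro than in bud, at 1.55 ± 0.55 (log2, SE, adjusted p = 0.0287) and 1.71 ± 0.63 (SE, adjusted p = 0.0348). The bud and in vitro arrays of PDF2.5 overlapped. The PDF1.2b probe set carries the array maker's mark for possible cross-hybridisation. Both thionin genes, THI2.1 and THI2.2, and STOMAGEN, a peptide that promotes stomata, were called lower in vitro than in bud.

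The strongest statistics among these families belonged to RALF-like genes and EC1.2. RALFL25 led in vivo against bud at 2.61 ± 0.46 (log2, SE, adjusted p = 0.00744), followed by EC1.2 at 2.13 ± 0.39 (SE, adjusted p = 0.00868). In vitro against bud RALFL34 had -7.41 ± 0.42 (SE, adjusted p = 1.25e-07) and RALFL24 had -5.93 ± 0.34 (SE, adjusted p = 1.31e-07). The same 2 genes led in vivo against in vitro, at 6.62 ± 0.42 (SE, adjusted p = 3.75e-07) and 5.87 ± 0.34 (SE, adjusted p = 2.5e-07).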

How the data were processed

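The authors deposited a linear intensity for every probe set on every array. MAS5 is the tool the submitters' processing notes name; no version is given in the sources used here, and detection calls were not used. Trimmed by 2% at each end, the mean of every array was 500, which is a common scaling target. Of 22810 probe sets, 64 controls were left out. The platform annotation named 1 gene for 13513 probe sets, several for 503, and did not list 8730; no LCR gene was in a probe set of several genes.

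Values were transformed as log2(value + 16). One limma model (version 3.58.1, R 4.3.3) held the 9 arrays and 3 group means; its two-sided p-values were adjusted by the Benjamini-Hochberg method over 22746 probe sets in each comparison; calls are adjusted p under 0.05. The fit was tested on simulated data. Replicates are labelled biological. The 3 arrays per group limit the precision. Offset, scaling, arrays in the fit, a filter on dim probe sets, a replicate block and single arrays left out were tried as alternatives.

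The LCR genes, families and marker lists were chosen with earlier results of these data known, and locus codes for some markers were added after the files were read. Named are all LCR genes, the 3 genes most correlated with each called one, the 2 other cysteine-rich peptide genes with the largest statistic in each comparison, and markers a result turns on. Of those named outside this rule, RALFL26, STOMAGEN, the thionins, PDF and marker genes were chosen after their values were seen. Reference names come from the TAIR10.1 gene table; no sequence table was used here. Same-numbered arrays of different groups did not deviate together.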

Additional observations from a re-analysis of the deposited data

How the results depend on the processing

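Under all 16 alternatives LCR66 was called lower than bud in both other groups, LCR68 and LCR69 lower in vitro than in both flower groups, LCR80 higher in vivo than in both others, and LCR72 higher in vitro than in bud. The filter on dim probe sets kept LCR80 only through its in vivo arrays, and LCR66 would not have passed it without its bud arrays. LCR68 and LCR69 would not have passed it without their bud and in vivo arrays. For these genes that alternative adds no support. The choice between probe sets of a gene could not be varied, since each LCR gene has 1. In vivo against bud, the number of LCR genes called higher was 2 with an offset of 64, with quantile normalization, with equal array medians or with dim probe sets filtered out (LCR72 joins LCR80), and 3 with only the 6 arrays compared. For in vitro against bud, quantile normalization gave 2 (LCR24 joins LCR72) and equal array medians 3 (LCR24 and LCR67 join). In vivo against in vitro, equal array medians gave 2 lower (LCR66 joins LCR72), and with quantile normalization LCR66 took the place of LCR72 as the 1 lower. All probe sets called in vivo against bud were 579 with an offset of 1 and 1378 with only the 6 arrays. Leaving out single arrays gave 541 to 1292 called probe sets in vivo against bud, 12539 to 14417 in vitro against bud and 12016 to 14045 in vivo against in vitro. The LCR genes called higher were then 1 to 3, 1 to 1 and 4 to 5, and those called lower 1 to 1, 3 to 4 and 0 to 2, in the same order. The low of 0 came without in vivo replicate 1, the 2 without in vitro replicate 2 (LCR66 joins LCR72), and the 3 without in vitro replicate 3.

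Some directions turned. For LCR59 in vitro against bud, quantile normalization gave 0.045 and equal medians 0.44. LCR24 in vivo against in vitro was -0.22 and -0.46, and LCR72, bright and called lower as deposited, was 0.046 with quantile normalization. With equal medians LCR80 in vitro against bud was 0.19 and LCR67 in vivo against in vitro -0.62. With single arrays left out, this LCR67 fold was -0.068 to 0.68, lowest without in vivo replicate 2, and that of LCR68 in vivo against bud was -0.28 to 0.46, lowest without bud replicate 3. The cause of these changes was not tested. Same-numbered arrays correlated at -0.05 to 0.07 in their deviations, and differently numbered arrays at -0.08 to 0.08. No shared deviation by number was seen, which cannot show that the samples were prepared apart. With a replicate block 784, 13844 and 13412 probe sets were called in the 3 comparisons and no LCR call changed. The depth limit is signal over background: LCR24, LCR59 and LCR67 exceeded the array median on 1, 1 and 0 of 9 arrays.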
